A study of Rattus norvegicus with 24 samples.

Results

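The right ventricles of rats labelled CHF were compared with those of rats labelled CON, both taken at day 14 of a monocrotaline study. The arrays were chosen by their labels, which put 6 right ventricle arrays in CHF and 6 in CON, so the comparison uses 12 of the 24 arrays of the series. A gene entered if 4 or more arrays of each group gave a value, after the probes of 1 gene symbol had been averaged, and 2435 of the 4126 named genes on the array met that rule. The title of the series speaks of compensated and decompensated hypertrophy after monocrotaline. Monocrotaline is a toxin of Crotalaria plants that damages lung vessels, raises pulmonary pressure and thereby loads the right ventricle. From that title CHF is read here as the heart failure group and CON as the control group. These names are not written out in the labels. Dose, strain, age and the state of the ventricles at day 14 (whether they had failed) are not given in the material used here. A further 6 right ventricle arrays carry the label HYP, read as compensated hypertrophy. They enter the test of CHF against CON only through the estimate of the spread, and are set beside CHF for the genes that passed. The labels number the samples without stating that they come from separate animals, so the p-values here rest on the spread from sample to sample, which may be technical.

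A right ventricle that pumps against a raised pulmonary pressure thickens its wall, and its muscle cells return in part to the gene programme of the fetal heart. Skeletal alpha-actin (Acta1), the natriuretic peptides (Nppa, Nppb) and beta-myosin heavy chain (Myh7) are classical members of that programme, and Ankrd1 encodes a titin-bound protein of the sarcomere that responds to stretch. Loaded and failing hearts are also known for lower expression of fatty acid oxidation enzymes and for deposition of collagen by fibroblasts.

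Each array set 1 ventricle sample against a reference pool, and the deposited value of a probe is a score with a mean near 0 and a standard deviation (SD) near 1 on its array. Differences between groups are in array SDs, which are no log2 fold changes. The direction of the scores is read as sample over pool, and it is not settled. Among the 66 pairs of the 12 arrays, 3 correlated below -0.3 across features, at the lowest -0.529 between CHF array 14 and CON array 18, and no source used here gives the dyes. CHF arrays 10 and 14 took part in all 3 of those pairs. They correlated at 0.830 with each other and at -0.488 to 0.152 with the other 4 CHF arrays, which correlated at 0.548 to 0.788 among themselves. The differences of the genes named below and the medians printed for gene lists are therefore given also with the sign of CHF arrays 10 and 14 turned, and some of them without these 2 arrays. A reversal of every array would turn every direction stated here. Values per array ranged from 2162 on CHF array 12 to 3605 on CON array 20, of 4803 probes.

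In limma's test over 2738 features (the 2435 named genes and 303 unnamed probes), 23 passed at an adjusted p of 0.05, or 0.840%. Of these, 22 were higher in CHF (0.804%) and 1, an unnamed probe, was lower (0.0365%). Named genes made up 19 of the 23, each of them higher in CHF. They encode muscle proteins (Acta1, Acta2, Tpm3, Tpm4, Cav3, Capn3), calcium buffers and signalling enzymes (Ocm, Pvalb, Itpka) and a mitotic kinase (Cdk1). Others encode proteins of amine, kinin, clotting and inflammatory pathways (Maoa, Bdkrb1, Fgb, Anxa1) and nuclear proteins (Safb, Clock). The rest encode microtubule and motor proteins (Tuba1b, Dynlt1) and a potassium channel (Kcnh5). All 23 had values on the 12 arrays, and in 20 of them the groups did not overlap. Over the 1797 features with 12 values, 26 did not overlap (1.45%), and 24 of those were higher in CHF. At an unadjusted p below 0.05, 114 features were higher (4.16%) and 105 lower (3.83%). In bulk tissue a change in the number of cells of a type and a change in RNA per cell cannot be told apart.

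**Figure D1:**
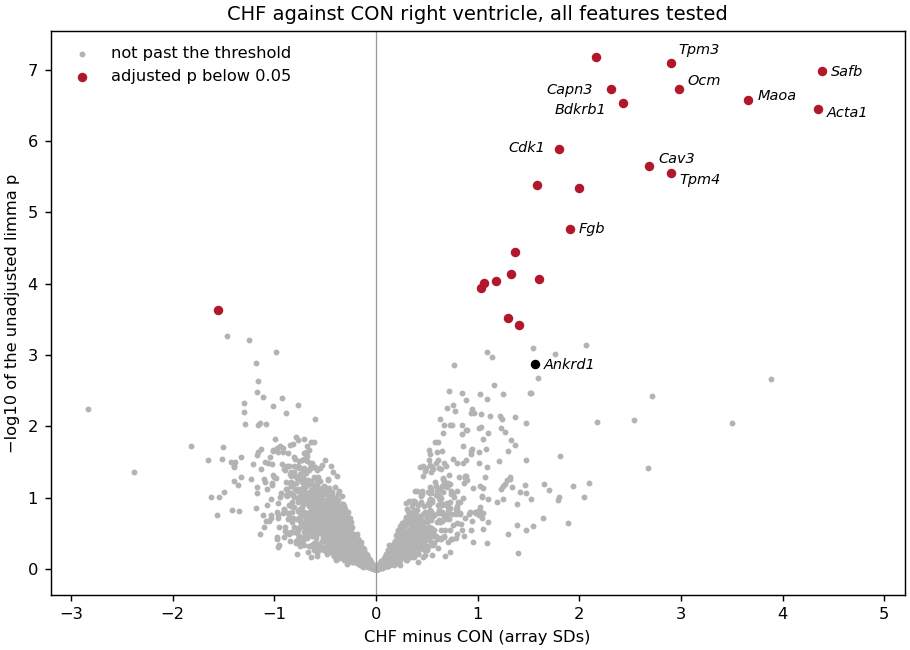
Difference between CHF and CON in array SDs (horizontal) against the −log10 of the unadjusted limma p (vertical) for the 2738 features tested, 1 point each. Of the 23 points past the adjusted threshold, drawn in red, 22 lie to the right of 0, and Ankrd1, in black, lies below them.

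Acta1, the skeletal alpha-actin that the fetal and the loaded heart express beside the cardiac form, was at 1.07 to 2.71 on the CHF arrays (median 1.62) and at -4.13 to -0.947 on the CON arrays (median -2.73). The groups did not overlap, and the lowest CHF value lay on array 12. The difference was 4.35 ± 0.570 (SE, n = 6 and 6, limma adjusted p = 0.000122), and with the sign of CHF arrays 10 and 14 turned it was 3.31 and did not pass (limma adjusted p = 0.0769). Acta2, the actin of smooth muscle and of the embryonic heart, was at 0.211 to 0.794 in CHF (median 0.327) and at -1.56 to -0.647 in CON (median -1.22), again without overlap. It rose by 1.58 ± 0.247 (n = 6 and 6, limma adjusted p = 0.000935), or 1.25 with the sign turned (limma adjusted p = 0.0769). The 3 probes of Acta2 disagreed. One differed by 4.14 and ran from 0.790 to 1.90 in CHF and from -3.92 to -1.30 in CON, while the others differed by 0.417 and 0.188. Whether that probe also detects the closely similar Acta1 transcript was not tested, and the call of Acta2 is uncertain for that reason. Actg1, a cytoskeletal actin named after its value was seen, differed by 0.848 ± 0.308 (n = 6 and 6, limma adjusted p = 0.388), and by 0.467 with the sign turned.

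The promoters of Acta1, Acta2, Cav3 and Cdk1 are shown because these genes are the muscle and cell cycle members with the best known upstream elements. The sequences are RefSeq's, on the GRCr8 assembly, from 250 bases before the annotated start of the gene to 50 after it, and capitals mark the motifs searched on both strands. In the muscle genes these were the CArG box (serum response factor), CATTCC (the MCAT element of TEAD factors) and TATAAA. They lie at chr19:68784145-68784444 on the minus strand (Acta1), chr1:241172454-241172753 on the minus strand (Acta2) and chr4:147137743-147138042 on the plus strand (Cav3).
Acta1: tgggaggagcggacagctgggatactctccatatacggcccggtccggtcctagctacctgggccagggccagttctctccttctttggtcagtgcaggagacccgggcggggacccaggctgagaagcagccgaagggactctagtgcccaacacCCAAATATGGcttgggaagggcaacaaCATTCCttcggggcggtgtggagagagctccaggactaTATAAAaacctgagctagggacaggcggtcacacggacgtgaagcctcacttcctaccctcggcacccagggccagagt
Acta2: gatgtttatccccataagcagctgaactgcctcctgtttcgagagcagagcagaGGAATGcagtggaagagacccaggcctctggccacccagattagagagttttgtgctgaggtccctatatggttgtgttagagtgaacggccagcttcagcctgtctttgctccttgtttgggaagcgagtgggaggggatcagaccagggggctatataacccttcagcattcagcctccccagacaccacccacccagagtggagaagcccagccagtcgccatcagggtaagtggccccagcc
Cav3: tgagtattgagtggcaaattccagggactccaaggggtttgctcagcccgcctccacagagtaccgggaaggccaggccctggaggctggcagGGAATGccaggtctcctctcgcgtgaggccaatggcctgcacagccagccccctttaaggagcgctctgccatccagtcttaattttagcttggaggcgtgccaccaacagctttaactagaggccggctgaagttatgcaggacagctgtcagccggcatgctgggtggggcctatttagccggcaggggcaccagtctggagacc
The Acta1 window holds a CArG box, CATTCC and TATAAA, and no 2 of these overlap. The windows of Acta2 and Cav3 hold CATTCC on the opposite strand, read as GGAATG. The CArG box was searched strictly, as CC, 6 bases of A or T, and GG. The Acta2 window holds ccctatatgg and ccttgtttgg, the Acta1 window ccatatacgg and the Cav3 window ccctttaagg, each 1 base off that pattern. Near matches were neither marked nor counted, and these are examples only. Of 33469 RefSeq windows of the same length 1.637% hold a CArG box, 14.19% hold CATTCC and 14.22% hold TATAAA. Counted by gene, 1.643% of the 2008 tested genes with a window hold a CArG box, 12.8% hold CATTCC and 11.65% hold TATAAA. Of the 19 named genes that passed, 18 matched a window, and 1 of these held the CArG box (Acta1), 6 held CATTCC and 3 held TATAAA. No test compared these shares. A match of letters is a description of the window and not evidence of binding.

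The tropomyosins, coiled-coil proteins that run along actin filaments and regulate access of myosin, were among the clearest differences. Tpm3, the slow-muscle and cytoskeletal form, was at 0.086 to 1.13 in CHF (median 0.663) and at -3.32 to -1.48 in CON (median -2.03). No CHF value reached down to the CON range, and CHF arrays 10 and 14, at 0.776 and 0.891, lay inside the range of the other CHF arrays. The difference was 2.91 ± 0.344 (n = 6 and 6, limma adjusted p = 9.34e-05), and 2.35 with the sign turned, which passed (limma adjusted p = 0.00802). Tpm4, a cytoskeletal tropomyosin, was at 0.147 to 1.77 in CHF (median 0.898) and at -2.96 to -1.09 in CON (median -1.84). The groups of Tpm4 did not overlap either. It differed by 2.90 ± 0.441 (n = 6 and 6, limma adjusted p = 0.000694), and by 1.77 with the sign turned (limma adjusted p = 0.240).

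Beyond actin and tropomyosin the sarcomere was mixed. The gene lists here and below were chosen with earlier results of these data known, so their counts are no independent support. Of 18 tested genes of the sarcomere list 4 rose: Acta1, Tpm3, the cytoskeletal Tpm4 and the calcium buffer Pvalb, which is listed with fast muscle. Pvalb is counted again in the calcium and skeletal muscle lists. In the same list 0 fell and 7 differences lay below 0. Over all features, beside this list and those below, 0.804% rose and 0.0365% fell. The median of the sarcomere list was 0.702 against -0.129 over all features, of which 62.4% lay below 0. That median depended on CHF arrays 10 and 14: it was -0.290 with their sign turned and 0.0386 without them, beside all-feature medians of -0.0973 and -0.0495. The cardiac troponins Tnnt2 and Tnni3 and the ventricular light chain Myl2 differed by -0.945 ± 0.544, -0.779 ± 0.587 and -0.477 ± 0.899 (n = 6 and 6, limma adjusted p = 0.684, 0.760 and 0.921). They differed by -1.34, -1.18 and -1.20 with the sign turned, and without the 2 arrays Tnni3 differed by -1.30 and Myl2 by -1.46. Mybpc1, the slow skeletal myosin-binding protein C, named after its value was seen, differed by 3.89 ± 1.05 on 4 arrays of each group (limma adjusted p = 0.162) and by -0.121 with the sign turned. Titin (Ttn), the elastic scaffold of the sarcomere, differed by 0.732 ± 0.371 (n = 6 and 6, limma adjusted p = 0.642), -0.279 with the sign turned and 0.210 without the 2 arrays. Its probes disagreed: the 3 probes measured on all 12 arrays differed by 0.135, 0.107 and 0.357, and another, with 2 values a group, by 7.04.

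**Figure D2:**
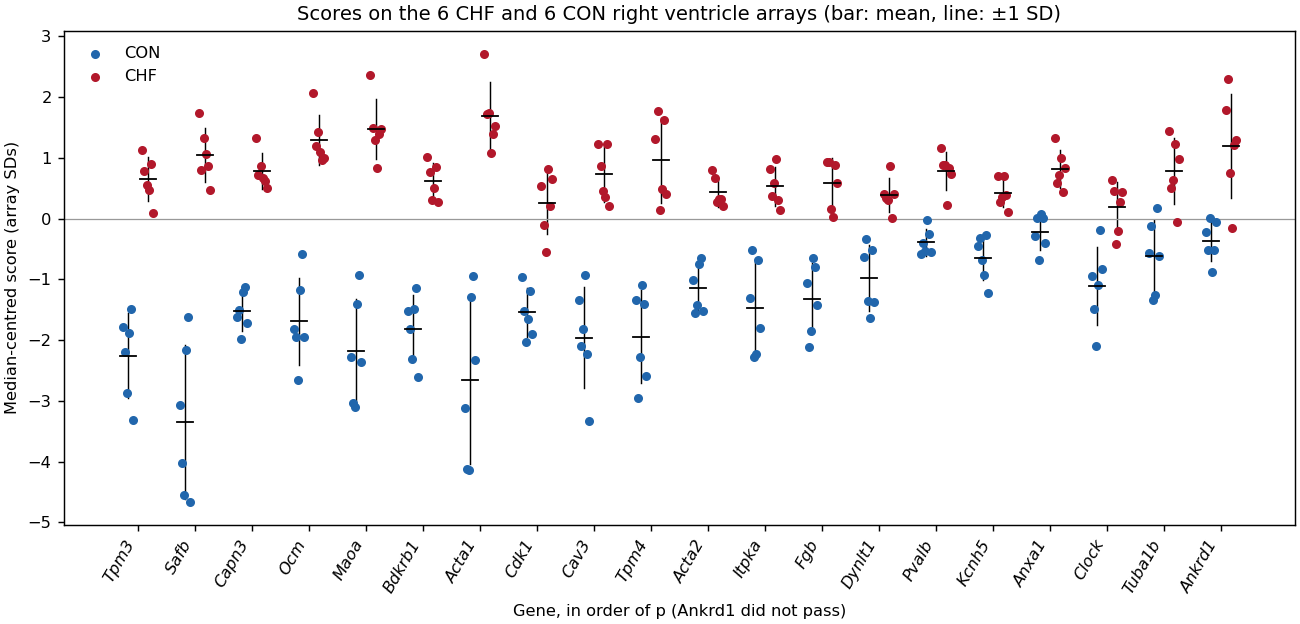
Scores in array SDs (vertical) of the 19 named genes that passed and of Ankrd1 (horizontal), 1 point per array, red for the 6 CHF and blue for the 6 CON arrays, with the mean as a bar and 1 SD as a line. The red and blue points do not meet in 17 of the 19 genes that passed, whereas they do in Clock, Tuba1b and Ankrd1.

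Among proteins of the muscle membrane and cytoskeleton, Cav3 and Capn3 stood out. Cav3, the caveolin that shapes the pits of the muscle cell membrane, was at 0.211 to 1.23 in CHF (median 0.663) and at -3.33 to -0.936 in CON (median -1.96). Its difference was 2.69 ± 0.402 (n = 6 and 6, limma adjusted p = 0.000619), or 1.99 with the sign turned (limma adjusted p = 0.0769). Capn3, the muscle calpain protease that binds titin, was at 0.500 to 1.32 in CHF (median 0.699) and at -1.98 to -1.12 in CON (median -1.57). Neither gene's groups overlapped, and the spread of Capn3 within groups was narrow, with a pooled SD of 0.306 against a median of 0.563 over the features with 12 values. Capn3 rose by 2.31 ± 0.290 (n = 6 and 6, limma adjusted p = 0.000101), and by 1.86 with the sign turned, which passed (limma adjusted p = 0.0269).

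Of the 23 tested genes of the cytoskeleton and membrane skeleton list, these 2 rose, 0 fell and 7 lay below 0, with a median of 0.155, or 9 below 0 and 0.173 with the sign turned. Cald1 (caldesmon, which binds actin and tropomyosin) was at 0.086 to 1.13 in CHF and at -1.38 to 0.081 in CON. Its groups did not overlap, but the difference of 1.14 ± 0.296 did not pass (n = 6 and 6, limma adjusted p = 0.0951), and it was 0.635 with the sign turned. Vim (vimentin, the intermediate filament of mesenchymal cells) differed by 0.853 ± 0.368 and Tagln (transgelin, an actin-binding protein of smooth muscle) by 0.528 ± 0.232 (n = 6 and 6, limma adjusted p = 0.545 for both). Vim differed by 0.365 and Tagln by 0.05 with the sign turned. Outside that list, Dynlt1, a dynein light chain, was at 0.013 to 0.857 in CHF (median 0.370) and at -1.63 to -0.338 in CON (median -1.0). It rose by 1.37 ± 0.254 (n = 6 and 6, limma adjusted p = 0.00652), and did not pass with the sign turned, at 1.25 (limma adjusted p = 0.0560). Tuba1b, an alpha-tubulin, overlapped between groups, at -0.056 to 1.44 in CHF and -1.33 to 0.174 in CON. Its difference of 1.41 ± 0.327 (n = 6 and 6, limma adjusted p = 0.0456) lay near the threshold. It kept its call in 3 of the 12 fits that left out 1 array (1.27 to 1.58) and lost it with the sign of CHF arrays 10 and 14 turned, at 1.26 (limma adjusted p = 0.193). The call of Tuba1b was also lost in the fit of CHF and CON alone and without centring.

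Among calcium genes, 2 buffers and a signalling kinase rose, and no pump or channel of the cardiac calcium cycle passed the test. Ocm (oncomodulin, a parvalbumin-like calcium buffer) was at 0.971 to 2.07 in CHF (median 1.14) and at -2.66 to -0.586 in CON (median -1.89). Every CHF value of Ocm lay above every CON value. It differed by 2.98 ± 0.374 (n = 6 and 6, limma adjusted p = 0.000101), or 2.26 with the sign turned (limma adjusted p = 0.0769). Pvalb (parvalbumin, the buffer of fast skeletal fibres) was at 0.219 to 1.16 in CHF (median 0.856) and at -0.577 to -0.029 in CON (median -0.469). Its change was smaller, at 1.18 ± 0.238 (n = 6 and 6, limma adjusted p = 0.0139), and it was 0.608 with the sign turned (limma adjusted p = 0.503). Itpka, a kinase that phosphorylates inositol trisphosphate and bundles actin, was at 0.139 to 0.984 in CHF (median 0.478) and at -2.27 to -0.512 in CON (median -1.55). It rose by 2.0 ± 0.315 (n = 6 and 6, limma adjusted p = 0.000944), and by 1.77 with the sign turned, which passed (limma adjusted p = 0.0269).

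Of 35 tested calcium-handling genes these 3 rose, 0 fell and 22 lay below 0, with a median of -0.226, or 21 below 0 and -0.148 with the sign turned. Atp2a2, the calcium pump of the sarcoplasmic reticulum, was at -0.543 to 2.42 in CHF (median -0.272) and at -1.07 to 0.046 in CON (median -0.311). Those ranges overlapped, and the difference was 0.712 ± 0.454 (n = 6 and 6, limma adjusted p = 0.724), -0.483 with the sign turned and -0.0138 without CHF arrays 10 and 14. Cacna1c, the pore of the L-type calcium channel, differed by -1.39 ± 0.691 (n = 6 and 6, limma adjusted p = 0.636), with CON array 17 at 4.94. It was -0.569 with the sign turned, and -1.61 to -0.590 in the fits that left out 1 array. Kcnh5, a voltage-gated potassium channel best known from the nervous system, was at 0.106 to 0.705 in CHF (median 0.376) and at -1.22 to -0.274 in CON (median -0.563). Kcnh5 rose by 1.07 ± 0.217 (n = 6 and 6, limma adjusted p = 0.0141), and by 0.844 with the sign turned, which did not pass (limma adjusted p = 0.233). Kcnh5 was not in the list of potassium and sodium channels and pumps, in which 0 of 37 passed in limma, 1 was higher and 0 lower at an unadjusted p below 0.05, 18 lay below 0 and the median was 0.00283.

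Skeletal muscle markers are given beside these genes, since the list of such markers used here holds Acta1, Ocm, Pvalb and Capn3. Those 4 were the only ones of the 21 tested genes of that list that passed. Of the 21, 14 lay below 0, with a median of -0.301. That median was 0.114 with the sign turned and 0.126 without CHF arrays 10 and 14. Whether Ocm marks skeletal muscle in these samples was not tested. Myh1, a fast skeletal myosin, differed by -0.470 and Ckm, the muscle creatine kinase, by -0.672 (limma adjusted p = 0.624 and 0.804), while Tnni2, the fast skeletal troponin I, differed by 0.777 (limma adjusted p = 0.287). Turning the sign gave -0.812 for Myh1, -1.26 for Ckm and 0.307 for Tnni2, and without the 2 arrays Ckm differed by -1.47 and Tnni2 by 0.509. All 3 were named after their values were seen. The mean score of the 18 markers measured on all 12 arrays ran from -0.0559 to 0.279 in CHF and from -0.359 to 0.134 in CON, and its part in the differences above was not tested.

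The mitotic kinase Cdk1, which drives entry into mitosis with cyclin B, was at -0.545 to 0.817 in CHF (median 0.369) and at -2.03 to -0.965 in CON (median -1.59). The groups did not overlap. The difference was 1.80 ± 0.258 (n = 6 and 6, limma adjusted p = 0.000389), and it hardly moved with the sign of CHF arrays 10 and 14 turned, at 1.77 (limma adjusted p = 0.00260). The HYP arrays lay between -1.34 and -0.713 and overlapped the CON arrays. CHF against HYP gave 1.32 without passing (limma adjusted p = 0.179). For all 19 named genes that passed, the HYP mean lay between the CHF and CON means. These genes were chosen for a wide gap between CHF and CON, so that position is no evidence of a graded change. None of the 19 passed CHF against HYP, and neither count was made over all features. Acta1 ran from -0.697 to 2.23 on the HYP arrays, into its CHF range, and CHF against HYP gave 1.24 (limma adjusted p = 0.978). The cyclin partner Ccnb1 went in the same direction without passing, at -0.587 to 0.805 on 6 CHF arrays and -2.39 to -0.567 on 4 CON arrays. Its difference was 1.54 ± 0.372 (n = 6 and 4, limma adjusted p = 0.0801), or 1.34 with the sign turned. Of 24 tested cell cycle genes Cdk1 alone rose, 0 fell and 9 lay below 0, with a median of 0.188, or -0.134 with the sign turned. Ccnd1, the cyclin of the G1 phase, differed by 1.10 ± 0.396 (n = 5 and 6, limma adjusted p = 0.378), and Pcna, the clamp of DNA replication, named after its value was seen, by 0.26 without passing. They differed by 1.47 and 0.455 with the sign turned, and Pcna by 0.609 without the 2 arrays.
The Cdk1 promoter (GRCr8, chr20:19265043-19265342, plus strand) was searched for CCAAT (the NF-Y element) and TTTGAA (the core of the cell cycle homology region, CHR), again with capitals and on both strands.
Cdk1: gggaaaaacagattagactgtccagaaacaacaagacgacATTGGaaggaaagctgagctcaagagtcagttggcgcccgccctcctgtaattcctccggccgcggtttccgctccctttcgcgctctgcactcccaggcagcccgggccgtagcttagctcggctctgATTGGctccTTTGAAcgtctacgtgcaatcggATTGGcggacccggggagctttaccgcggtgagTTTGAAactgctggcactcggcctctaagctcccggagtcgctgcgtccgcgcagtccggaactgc
It holds CCAAT 3 times, each read as ATTGG, and TTTGAA 2 times, without overlap. Of the 33469 windows 37.49% hold CCAAT and 18.35% hold TTTGAA. Counted by gene, 39.89% and 10.66% of the 2008 tested genes with a window do, and of the 18 matched genes that passed 7 and 4 do. No test compared these shares.

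Maoa, Bdkrb1, Fgb and Anxa1 also rose, single genes of amine, kinin, clotting and inflammatory pathways. Maoa, a monoamine oxidase of the outer mitochondrial membrane that breaks down serotonin and noradrenaline, was at 0.840 to 2.37 in CHF (median 1.43) and at -3.10 to -0.932 in CON (median -2.31). Its difference was 3.66 ± 0.470 (n = 6 and 6, limma adjusted p = 0.000116), or 2.70 with the sign turned (limma adjusted p = 0.0881). Bdkrb1, the bradykinin receptor that tissue injury induces, was at 0.268 to 1.01 in CHF (median 0.631) and at -2.61 to -1.14 in CON (median -1.67). Neither gene overlapped between groups. Bdkrb1 differed by 2.43 ± 0.314 (n = 6 and 6, limma adjusted p = 0.000116), and by 1.89 with the sign turned, which passed (limma adjusted p = 0.0269). These were the 2 of 49 tested neurohormonal genes that rose. Of the other members 0 fell, 26 of the 49 lay below 0 and the median was -0.0199. Adcy8, an adenylyl cyclase, differed by 2.54 ± 0.852 (n = 6 and 5, limma adjusted p = 0.320), but by 0.597 with the sign of CHF arrays 10 and 14 turned and by 1.43 without them. In the fits that left out 1 array Adcy8 ran from 1.97 to 2.98.

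Fgb, the beta chain of fibrinogen, was at 0.024 to 0.938 in CHF (median 0.738) and at -2.12 to -0.657 in CON (median -1.25). The groups did not overlap, and the difference was 1.91 ± 0.334 (n = 6 and 6, limma adjusted p = 0.00335), or 1.30 with the sign turned (limma adjusted p = 0.233). It rested on 1 of the gene's 2 probes, at 3.34 against 0.469. Fga, the alpha chain of the same protein, named after its value was seen, differed in the other direction without passing, by -0.848 ± 0.328 (n = 6 and 6, limma adjusted p = 0.482). Fga differed by -0.516 with the sign turned and by -0.468 without the 2 arrays. Cp, the copper carrier ceruloplasmin, was split in the same way: as a gene it differed by 1.04 ± 0.340 (n = 6 and 6, limma adjusted p = 0.292; 1.27 with the sign turned), its probe with 12 values by 1.99 (limma adjusted p = 0.000837 in the fit of single probes) and its probe with 4 values a group by -0.832. Fgb was the only one of 10 tested liver markers that passed, and 6 of the 10 lay below 0 with a median of -0.208, or 6 and -0.183 with the sign turned. Of 42 tested cytokine, chemokine and acute-phase genes, Fgb and Bdkrb1 rose, 0 fell and 21 lay below 0, with a median of 0.00212. That median was 0.0645 with the sign turned and -0.166 without the 2 arrays. Anxa1, a phospholipid-binding protein that restrains inflammation, was at 0.435 to 1.32 in CHF (median 0.776) and at -0.685 to 0.069 in CON (median -0.138). It rose by 1.03 ± 0.212 (n = 6 and 6, limma adjusted p = 0.0155), and by 0.691 with the sign turned, which did not pass (limma adjusted p = 0.452).

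Safb, a nuclear scaffold and RNA-binding protein, had the largest difference among the genes that passed. It was at 0.472 to 1.75 in CHF (median 0.958) and at -4.67 to -1.63 in CON (median -3.54), without overlap. The difference was 4.39 ± 0.529 (n = 6 and 6, limma adjusted p = 9.34e-05), and 3.84 with the sign turned, which passed (limma adjusted p = 0.00362). Clock, the transcription factor of the circadian clock, overlapped between groups, at -0.418 to 0.637 in CHF and -2.10 to -0.182 in CON. Its difference of 1.30 ± 0.295 (n = 6 and 6, limma adjusted p = 0.0380) kept its call in 3 of the 12 fits that left out 1 array (1.10 to 1.49) and lost it with the sign of CHF arrays 10 and 14 turned, at 1.06 (limma adjusted p = 0.193), and without them, at 1.22 (limma adjusted p = 0.126). Clock also lost its call in the fit of CHF and CON alone. No source used here gives the hour at which tissue was taken.

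Several of these genes varied with Acta1 from array to array within the groups. Over the 12 arrays, each gene's departures from its group means were correlated with those of Acta1. The correlation was 0.957 for Maoa, 0.887 for Ocm, 0.794 for Fgb, 0.788 for Acta2, 0.771 for Capn3 and 0.765 for Safb. For Cdk1, Cav3, Itpka and Kcnh5 the correlations were 0.118, 0.127, 0.00780 and -0.0870. The value of Acta2 includes the probe for which detection of Acta1 was not tested. Such correlations were not particular to genes that passed: Dlat of the glucose list had 0.862, Cald1 0.844 and Psmc3 of the proteasome list -0.763. They were not computed over all features. These values describe 12 arrays that share 1 reference pool, and no test was made of them.

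Other members of the fetal and stretch programme did not pass. Ankrd1 was at -0.157 to 2.29 in CHF (median 1.25) and at -0.884 to 0.0035 in CON (median -0.368). CHF array 12 alone lay inside the CON range. The difference was 1.56 ± 0.414 (n = 6 and 6, limma adjusted p = 0.110). Without CHF array 12 it was 1.83 and passed, and with the sign of CHF arrays 10 and 14 turned it was 0.390 (limma adjusted p = 0.753). Nppa had values on 3 CHF and 5 CON arrays and Nppb on 3 and 4, so neither met the rule of 4 values a group and neither was tested. Nppa was at -5.52 to 3.08 in CHF (median 1.24) and at -5.54 to 1.91 in CON (median -2.41), and Nppb at -0.908 to -0.264 and -2.06 to -0.200 (medians -0.808 and -1.43). Both pairs of ranges overlapped. Myh6, the fast alpha-myosin of the rodent ventricle, differed by 0.0225 ± 0.696 (n = 5 and 6, limma adjusted p = 0.997), and -0.340 with the sign turned, and Myh7 was not among the named genes of these arrays. Of 15 tested members of the fetal and stretch list, Acta1 and Acta2 rose, 0 fell and 6 lay below 0, with a median of 0.0948. With the sign turned 0 of the 15 passed in limma, 6 lay below 0 and the median was 0.279.

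No gene of the 3 lists of energy metabolism passed the limma test. Of 35 tested genes of fatty acid uptake and oxidation, 27 lay below 0, against 62.4% of all features, with a median of -0.435 against -0.129. At an unadjusted p below 0.05, 9 of the 35 were lower and 0 higher in CHF, beside 3.83% lower over all features. With the sign turned 27 of 35 lay below 0 with a median of -0.385, and without CHF arrays 10 and 14, 22 of 28 did with -0.374. Decr1 (2,4-dienoyl-CoA reductase of mitochondria) was at -1.31 to 0.755 in CHF (median -0.109) and at 0.316 to 1.17 in CON (median 1.0). Those ranges overlapped, and the difference was -1.12 ± 0.339 (n = 6 and 6, limma adjusted p = 0.225), but -0.289 with the sign turned and -0.634 without CHF arrays 10 and 14. Hadh, which oxidises 3-hydroxyacyl-CoA, differed by -1.14 ± 0.390 (limma adjusted p = 0.326) and Fabp3, the heart fatty acid binding protein, by -1.07 ± 0.461 (limma adjusted p = 0.545), both with n = 6 and 6. Hadh differed by -0.420 with the sign turned and -0.545 without the 2 arrays, and Fabp3 by -1.40 with the sign turned. Cpt1b, the muscle form of the enzyme by which long-chain fatty acids enter mitochondria, named after its value was seen, had the lowest difference of the list, -2.38 ± 1.07, on 4 CHF and 5 CON arrays (limma adjusted p = 0.575), and was -2.40 with the sign turned.

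Citric acid cycle and respiratory chain genes had 30 of 36 below 0, a median of -0.379 and 0 past the limma test, with 2 lower and 1 higher at an unadjusted p below 0.05. When the sign was turned 31 lay below 0 with a median of -0.602, and without CHF arrays 10 and 14 the median was -0.293. Atp5pf and Ndufv3, subunits of ATP synthase and of complex I, differed by -0.780 ± 0.348 and -0.811 ± 0.375 (n = 6 and 6, limma adjusted p = 0.545 and 0.578). Atp5pf differed by -1.23 and Ndufv3 by -0.134 with the sign turned, and without the 2 arrays Ndufv3 differed by -0.438. Atp5f1b, the beta subunit of ATP synthase, was an exception by size, at -0.538 to 7.19 in CHF (median -0.0855) and -2.88 to 0.0085 in CON (median -0.262). Its difference of 2.67 ± 1.20 (n = 6 and 6, limma adjusted p = 0.545) was -1.78 with the sign turned and 0.354 without the 2 arrays. Among 45 genes of glucose uptake, glycolysis and glycogen 28 lay below 0 (62.2%, beside 62.4% of all features) with a median of -0.191. Of these 45 genes 0 passed in limma, and 1 was lower at an unadjusted p below 0.05. Aldoa (aldolase A) differed by 1.94 ± 1.0 (n = 6 and 6, limma adjusted p = 0.651), by -1.29 with the sign turned and by -0.0143 without the 2 arrays.

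Lists of protein synthesis, breakdown and defence likewise held no gene past the limma test. Over all features 0.840% passed that test, and 62.4% lay below 0 with a median of -0.129. At an unadjusted p below 0.05, 6 antioxidant, 2 ribosomal and 2 proteasome genes were lower, 3 chaperone genes were higher and 0 apoptosis genes were either. Over all features 3.83% were lower and 4.16% higher at that threshold. Cytosolic ribosomal protein genes had 57 of 65 below 0 and a median of -0.320, and 50 of 65 with -0.358 when the sign was turned. Rpl19 differed by -0.663 ± 0.264 and Rpl37a by -0.709 ± 0.300 (n = 6 and 6, limma adjusted p = 0.499 and 0.545), or by -0.837 and -0.595 with the sign turned. Proteasome and ubiquitin genes had 29 of 33 below 0 with a median of -0.291, but 16 of 33 with 0.0163 when the sign was turned. Antioxidant and glutathione genes had 28 of 43 below 0 with a median of -0.191, and 24 with -0.180 when the sign was turned. Of these Prdx5 (a peroxiredoxin) and Cat (catalase) differed by -0.925 ± 0.282 and -0.599 ± 0.202 (n = 6 and 6, limma adjusted p = 0.225 and 0.316), or by -0.759 and -0.211 with the sign turned. Heat shock and chaperone genes had 14 of 26 below 0 and a median of -0.0233, and apoptosis genes 13 of 17 and -0.173, or 9 and -0.143 with the sign turned.

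**Figure D3:**
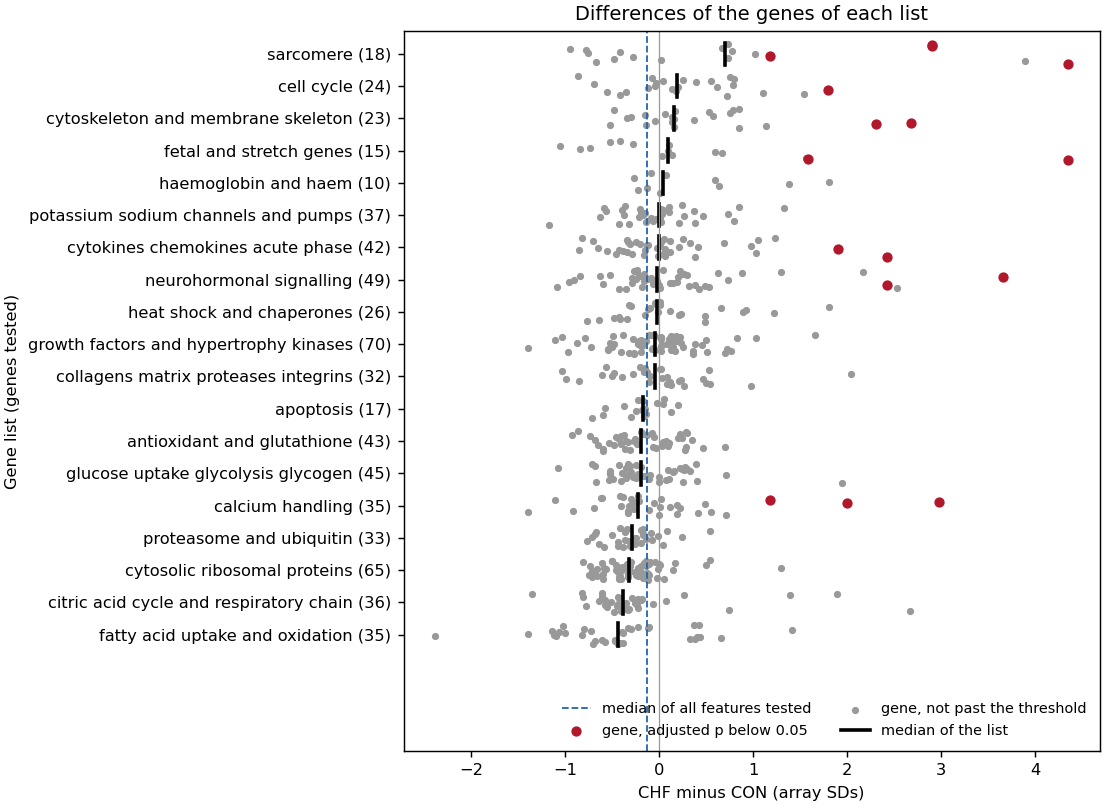
Differences between CHF and CON in array SDs (horizontal) for the tested genes of 19 gene lists (vertical), 1 point per gene, red where the gene passed, with the median of each list as a black bar and the median of all features, -0.129, as a dashed line. The sarcomere list has the highest median, 0.702, and 4 red points, while the fatty acid list has the lowest, -0.435, and none. The lists were chosen with earlier results of these data known.

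Matrix genes lay evenly on both sides of 0. Of 32 tested collagens, matrix proteases and integrins 16 lay below 0, the median was -0.0469 and 0 passed in limma, with 1 lower at an unadjusted p below 0.05. Col1a1, the chain of the main fibrillar collagen, was at -0.704 to 0.919 in CHF (median 0.458) and at -0.048 to 0.898 in CON (median 0.425). The groups overlapped almost fully, and the difference was -0.107 ± 0.278 (n = 6 and 6, limma adjusted p = 0.936). It was -0.642 with the sign turned and -0.358 without CHF arrays 10 and 14. Col3a1 spread widely in both groups, from -2.65 to 2.43 in CHF and from -1.84 to 2.66 in CON, and differed by -0.849 ± 1.0 (n = 6 and 6, limma adjusted p = 0.857). The difference of Col3a1 was -2.39 with the sign turned, -2.06 without the 2 arrays and -1.37 to -0.340 in the fits that left out 1 array. Dcn (decorin, a proteoglycan of fibroblasts) differed by -0.993 ± 0.371 and Tnc (tenascin C) by -0.567 ± 0.272 (n = 6 and 6, limma adjusted p = 0.437 and 0.616), or by -1.34 and -0.976 with the sign turned. The 9 tested fibroblast markers had 7 below 0 and a median of -0.272, or 6 and -0.197 with the sign turned. Growth factor and hypertrophy kinase genes had 0 of 70 past the limma test, 1 higher and 1 lower at an unadjusted p below 0.05, 36 below 0 and a median of -0.0394.

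With the sign as deposited and all 12 arrays, 0 named genes fell, although 105 features were lower at an unadjusted p below 0.05. That count depended on the processing: features lower in CHF numbered 8 with arrayWeights, 11 with the array component and 8 without CON array 21, of which 8, 8 and 7 were named genes. Of the 8 lower named genes with the smallest p, Klrk1, a receptor of natural killer and T cells, was at -0.940 to 0.493 in CHF (median -0.113) and at -0.033 to 2.03 in CON (median 1.42). Its groups overlapped, and the difference was -1.46 ± 0.351 (n = 6 and 6, limma adjusted p = 0.0607). Klrk1 passed in 6 of 26 alternatives, Inpp4b in 5 and Inha in 4. Klrk1 differed by -1.12, Inpp4b by -0.554 and Inha by -0.248 with the sign turned, and none of the 3 passed in limma (adjusted p = 0.270, 0.554 and 0.797). Inpp4b, a phosphoinositide phosphatase, differed by -1.25 ± 0.304 and Inha, the alpha subunit of inhibin, by -0.983 ± 0.250 (n = 6 and 6, limma adjusted p = 0.0663 and 0.0849). Inpp4b overlapped at -1.27 to 0.066 and -0.334 to 1.12, and Inha at -1.62 to -0.856 and -1.27 to 0.244. Cdk5r1 (an activator of Cdk5), Sdc3 (a syndecan) and Kif6 (a kinesin) differed by -1.18, -1.16 and -1.30 (limma adjusted p = 0.110, 0.169 and 0.248), or by -0.697, -0.365 and -0.600 with the sign turned, and Decr1 and Prdx5 complete the 8. The 1 feature that fell was a probe with no gene symbol, at -0.914 to 0.576 in CHF and 0.408 to 2.32 in CON, by -1.56 ± 0.344 (n = 6 and 6, limma adjusted p = 0.0305). With the sign turned it differed by -1.24 and did not pass (limma adjusted p = 0.167), and without the 2 arrays by -1.35 (limma adjusted p = 0.135).

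Markers of cell types are described here, but they could not check the tissue label. Of 19 cardiomyocyte markers on the arrays 17 had enough values to be tested, and 0 passed the limma test. In limma 1 was lower at an unadjusted p below 0.05, 11 lay below 0 and the median was -0.347. A signed score against a pool has no true 0, so the level of a cell type cannot be read from it. The mean over the 14 cardiomyocyte markers with 12 values ran from -1.58 to 0.959 in CHF and from -0.547 to 1.20 in CON. CHF array 12, which also had the fewest values, was the lowest of the 12 arrays for Tnnt2 (-2.57), Tnni3 (-2.87) and Myl2 (-5.14), and its part in the differences of these genes was not tested beyond the fits that leave out 1 array. Without CHF array 12 the difference of Myl2 was 0.371 and that of Col1a1 was 0.0941, both opposite in sign to the values above and neither past the test.

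Smooth muscle and pericyte markers had 4 of 11 below 0, a median of 0.341 (-0.173 with the sign turned) and 1 past the test, Acta2. Their mean over 7 genes ran from 0.0150 to 0.650 in CHF and from -0.631 to 0.126 in CON, and its part in the rise of Acta2 was not tested. The 4 tested erythrocyte markers had 1 below 0 and a median of 0.990, which was 2.74 with the sign of CHF arrays 10 and 14 turned. Hbb (beta-globin) was at -3.85 to -0.133 in CHF (median -3.17) and at -8.29 to -1.15 in CON (median -4.24), with overlap. Its value was below 0 on every array, at -3.745 and -2.935 on CHF arrays 10 and 14. Turning the sign put Hbb above 0 on these 2 arrays alone. Hbb differed by 1.80 ± 1.04 (n = 6 and 6, limma adjusted p = 0.684), by 4.03 with the sign turned and by 2.10 without the 2 arrays. Markers of endothelium (3 of 6 below 0), macrophages (4 of 5), lymphocytes (3 of 3), mast cells (3 of 5), nerve (7 of 10) and fat (3 of 6) had 0 past the limma test and 0 at an unadjusted p below 0.05.

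**Figure D4:**
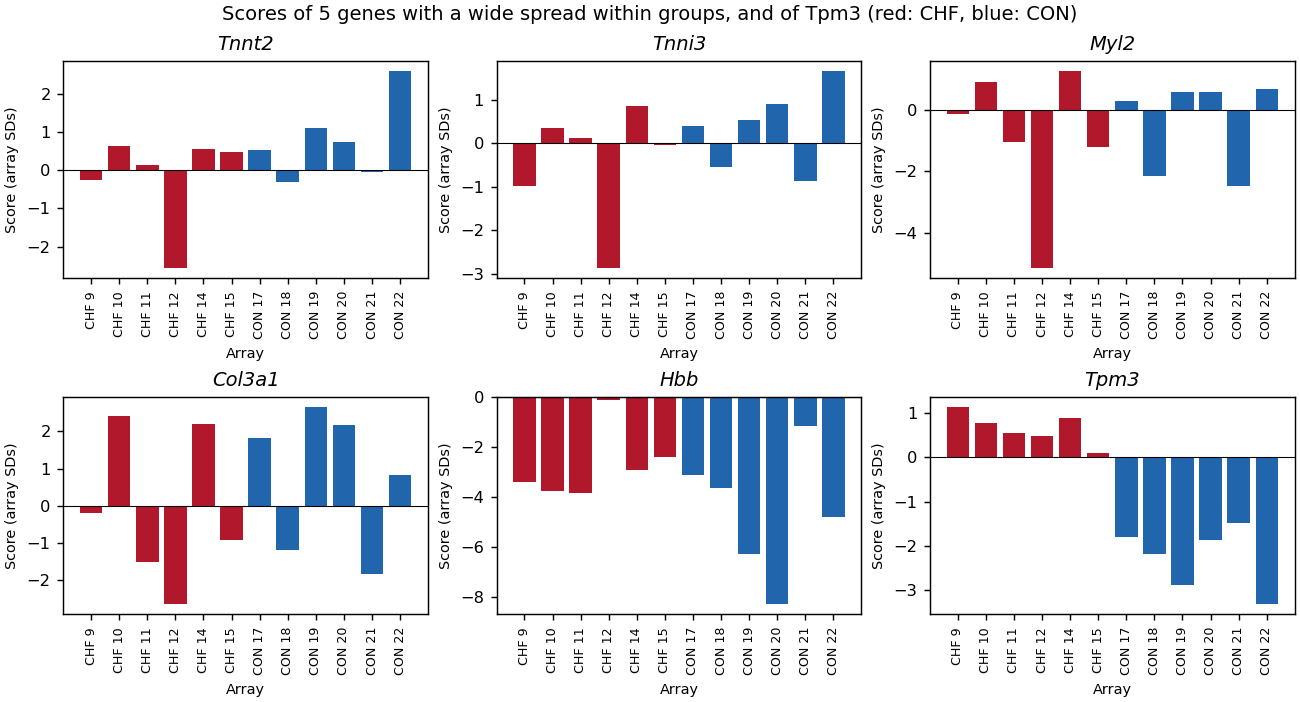
Scores in array SDs (vertical) of 6 genes on each of the 12 arrays (horizontal), red bars for CHF and blue for CON, each panel with its own scale. Tnnt2, Tnni3 and Myl2 are lowest on CHF array 12, Col3a1 and Hbb spread widely within both groups, and Tpm3 is above 0 on all 6 CHF arrays and below 0 on all 6 CON arrays.

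Likeness between whole arrays did not follow the groups closely. The median correlation across features, which are not independent replicates, was 0.152 within CHF, 0.285 within CON and 0.195 between them. In the 18 right ventricle arrays, the first principal component of the within-group departures held 43.3% of the variance over 1656 features. On it CHF arrays 10 and 14 stood at -0.383 and -0.448, and the other 4 CHF arrays at 0.138 to 0.296, while the CON arrays ran from -0.202 to 0.227.

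What remained with the sign of those 2 arrays turned was smaller. Then 8 features passed, and 7 of these were among the 23: Cdk1, Safb, Tpm3, Itpka, Bdkrb1, Capn3 and an unnamed probe. The eighth was Penk, the precursor of the enkephalins, at -2.84 to -0.051 in CHF and -5.27 to -1.60 in CON with the sign as deposited. Every one of these values lay below 0, with CHF arrays 10 and 14 at -2.84 and -2.40. Turning the sign put Penk above 0 on these 2 arrays alone. Penk differed by 2.17 ± 0.741 as deposited (n = 6 and 6, limma adjusted p = 0.326) and by 3.92 with the sign turned (limma adjusted p = 0.0345). All 19 named genes kept their sign, and without the 2 arrays 18 of the 19 passed, all but Clock.

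The lists depended on these 2 arrays to different degrees. With the sign turned, the medians of the fatty acid, respiratory chain and ribosomal protein lists stayed below that of all features, as did that of glucose metabolism (-0.280, 31 of 45 below 0). The medians of growth factors and kinases (-0.260, 42 of 70) and chaperones (-0.203, 18 of 26) lay above that of all features with the sign as deposited and below it with the sign turned. The matrix list was at -0.171 (19 of 32), and the cardiomyocyte markers at -0.569 (15 of 17). Besides the sarcomere, cell cycle, proteasome, smooth muscle and skeletal muscle lists, the median changed side for the channels and pumps (-0.0968), the neurohormonal genes (0.166), the endothelial markers (-0.625) and the macrophage markers (0.192). Among the scalings of the arrays, the neurohormonal and chaperone medians, both near 0, changed side without centring (0.0189 and 0.0156) and with quantile normalization (0.0209 and 0.00737), as did the fat markers with the latter (-0.00959).

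**Figure D5:**
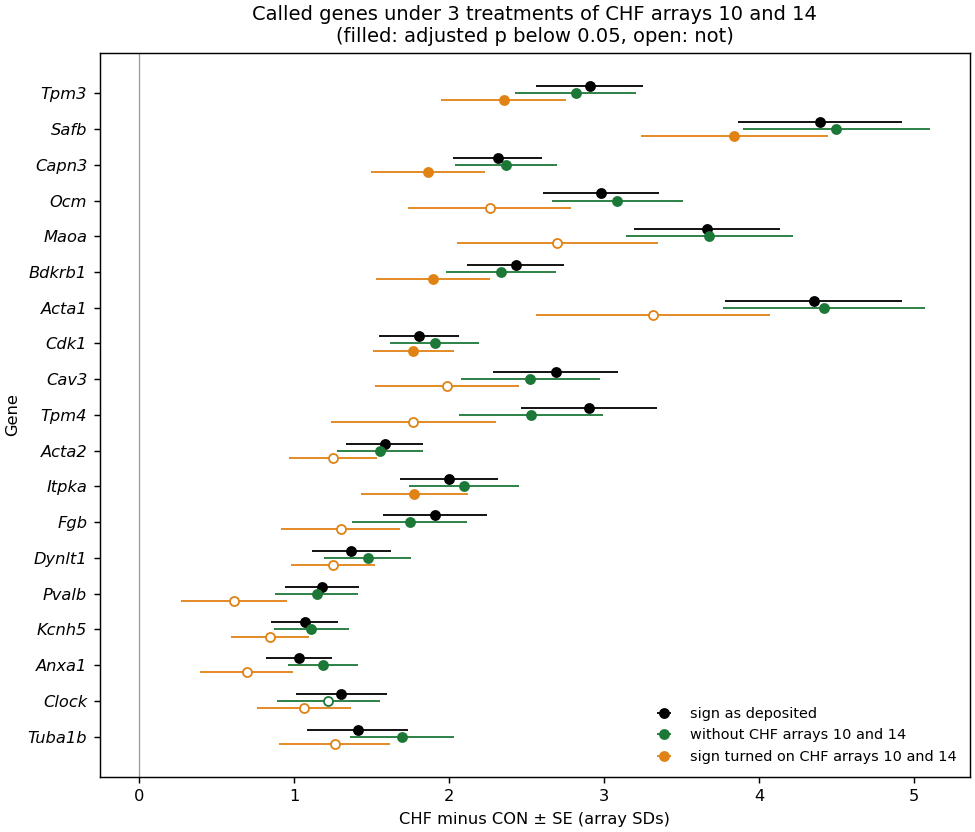
Difference between CHF and CON in array SDs with its standard error (horizontal) for the 19 named genes that passed (vertical), with the sign as deposited (black), without CHF arrays 10 and 14 (green) and with their sign turned (orange), filled where the adjusted p is below 0.05. All points lie above 0, and 19, 18 and 6 of them are filled.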

How the data were processed

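RNA of rat ventricles was measured on 2-colour arrays, 1 ventricle sample against a reference pool per array. The authors' deposited values are a signed score per probe and array, with missing values and no stated scale. From the values, they were standardised within each array. Scanner, dyes, background correction and normalization are not given in the material used here, and the scores carry no signal over background, so the number of arrays limits the precision. Of 4803 probes 4278 had 1 gene symbol in the platform annotation, 4 several and 521 none. Entrez identifiers matched RefSeq (GRCr8) for 4257 and changed 0 symbols.

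Each array was centred on its median and probes of 1 symbol were averaged. Features with at least 4 values in CHF and in CON were tested with limma 3.58.1 (lmFit, contrasts.fit, eBayes, R 4.3.3, statmod 1.5.0) on the 18 right ventricle arrays in 3 groups, with Benjamini-Hochberg adjustment over all 2738. The design had assumed ratios on a log scale, and limma was kept for the signed scores. The script was tested on simulated data. The members and the 31 gene lists were chosen with earlier results of these data known. Named were Acta1, Ankrd1, Cdk1 and Tpm3, all named genes past the threshold, the 8 lower genes with the smallest p, up to 3 genes with the smallest p of each list, and Nppa, Nppb, Myh6, Myh7, Atp2a2, Col1a1 and Col3a1. Lists of cell type markers other than cardiomyocytes, smooth muscle and fibroblasts were described by counts, and Tnnt2, Tnni3, Myl2, Tagln, Penk and Cdc20 were named after their values were seen. The alternatives changed the centring, the sign or presence of CHF arrays 10 and 14, the arrays in the fit, the normalization, the number of values needed, the weights, a component covariate, the rows tested and the spread estimate, and left out each array in turn. For single genes with 12 values an exact two-sided permutation test cannot go below 0.00216. The left ventricle arrays entered only 1 alternative.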

Additional observations from a re-analysis of the deposited data

Results flagged for a closer look

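In 175 groups of 4 to 6 arrays, from 89 named genes, 8 held 1 array far from the others by Dixon's criterion (the gap to the nearest array over the range of the group). Chance flags about 1 in 20 groups. CHF array 12 was low for Tnnt2, at -2.571 against -0.266 for the nearest array, and for Fabp3, at -1.084 against 0.447. CHF array 10 was low for Cp, at -1.1105 against 0.063, as the mean of 2 probes. The Cp probe measured on all 6 CHF arrays ran from 0.063 to 0.549 there. The low mean therefore came from the other probe, measured on 4 CHF arrays, which ran from -2.563 to 0.414. Among the CON arrays, array 17 was low for Atp5f1b, at -2.885 against -0.2845, and high for Cacna1c, at 4.937 against 0.303. CON array 18 was low for Adcy8, at -4.1205 against -1.7415, CON array 21 for Psmc5, at -1.75 against -0.075, and CON array 22 for Blvra, at -1.405 against -0.114. None of these genes passed the test between CHF and CON.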

How the results depend on the processing

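The count of 23 features was 8 with the sign of CHF arrays 10 and 14 turned (7 shared with the 23), 44 with arrayWeights (22 shared) and 52 with the first component of the deviations as a covariate (23 shared; that component was estimated from the same values). In the other 12 alternatives, single arrays apart, it was 19 to 29, and 20 to 32 in the fits that left out 1 array. Of the 19 named genes 17 passed in all 12 of those fits, 15 passed in the fit of CHF and CON alone, and 19 kept their sign in every alternative. With the sign turned the differences reversed for Kcnip2 (-0.0327), Aldoa (-1.29), Atp5f1b (-1.78), Hspa9 (-0.271), Ttn (-0.279), Myh6 (-0.340) and Atp2a2 (-0.483), none of which passed. Without CHF arrays 10 and 14 they reversed for Aldoa (-0.0143) and Atp2a2 (-0.0138). Myh6 was -0.952 with arrayWeights and -0.264 with the component. Leaving out 1 array gave -0.495 to 0.385 for Myh6, -0.231 to 0.0941 for Col1a1 and -0.907 to 0.371 for Myl2. The cause was not tested. No paired analysis was possible because the CHF and CON right ventricle arrays share no replicate number. The scores carry no signal over background, 1691 of 4126 named genes had too few values, and 4 to 6 arrays a group set the precision.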

Other observations

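Some genes were measured in 1 group and hardly in the other, so that no difference could be tested. Cdc20, the activator that ends mitosis by directing cyclin B to breakdown, had values on 5 CHF arrays, from 0.035 to 0.740, and on 1 CON array, at -2.121. The reverse held for Abcb11, Cirbp, Gsr, Hoxd3, Rbl2 and Slc30a1, each with values on 5 CON arrays and at most 1 CHF array. Cirbp, a cold-inducible RNA-binding protein, ran from -0.7765 to 0.801 on those CON arrays and had no value on the 6 CHF arrays. Gsr, the glutathione reductase, ran from -4.3635 to 3.392 on the CON arrays and stood at 1.233 on its 1 CHF array. No source used here says why a score is missing, and CHF arrays held 2162 to 3252 values and CON arrays 2584 to 3605.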
